A study of Mus musculus with 2 samples.

Results

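The sarcomere and muscle energy genes are 40 genes that build the contractile unit of striated muscle, release and store its calcium, or supply it with ATP. They were chosen by gene name from a list of known muscle genes, and every probe on the arrays that carries such a name was taken. The choice was made with earlier results of these data known. Of the 31093 gene names on the array, 22740 were measured on both arrays, and all 40 muscle genes were among them, with 53 probes on 62 spots. They lie on 15 chromosomes. The arrays held RNA from dorsal skin of newborn mice at postnatal day 0 (P0) on a C57BL/6J background. The groups were wild type (Sdr9c7+/+) and knockout (Sdr9c7-/-) mice, with 1 array per genotype and RNA pooled from 5 animals on each. Sdr9c7 encodes a short-chain dehydrogenase of the epidermis that takes part in making the lipid barrier of the skin, and the comparison asks which transcripts differ in skin without it. The sources used here do not state which part of the gene was removed, or in which cells, and pooling leaves no measure of the spread between animals.

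In striated muscle, thin filaments of actin slide along thick filaments of myosin. The troponin complex on the thin filament responds to calcium. Titin and the M band hold the thick filaments in register, and the Z disc anchors the thin ones. An action potential is sensed by the calcium channel of the cell surface, which opens the ryanodine receptor of the sarcoplasmic reticulum, and calcium pumps then refill that store. Creatine kinases, glycogen breakdown and glycolysis supply ATP. Many of these proteins have separate fast-fibre and slow-fibre isoforms, and immature skeletal fibres also use isoforms known from the heart. Mouse skin carries a sheet of striated muscle on its deep side, the panniculus carnosus, so whole dorsal skin includes striated muscle.

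Signals below are relative to the 75th percentile of each array, so that 1 equals that percentile, and differences are log2 of knockout over wild type. A gene's value is the mean over its probes well above background on both arrays. With 1 array per genotype there is no replicate check and no p-value. Differences are read against 2-fold and 1.5-fold thresholds and against technical spread, the SD between probes of the same gene, which was 0.25 on the log2 scale over 5162 genes. Between spots of the same probe the SD had a median of 0.06 over 320 probes. Array, labelling and hybridisation cannot be told apart from genotype. Probes well above background made up 74.9% (wild type) and 76.8% (knockout), and no spot was saturated. The relative signal of Sdr9c7 itself was 0.324 (wild type) and 0.0479 (knockout), a difference of -2.76 from 1 probe. The design text names epidermis and the labels name skin. Both keratinocyte markers (8 of 8) and dermal fibroblast markers (8 of 8) were well above background on both arrays.

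The probes are 60-base DNA strands, and closely related isoforms can in principle bind the same probe. The probes of isoform pairs were therefore set side by side. The 2 probes of Tnnt3, fast troponin T, overlap by 27 bases, given in capitals here and written 5′ to 3′ as the array carries them, so their agreement is not that of separate stretches of the transcript. The first of them has no position in the file, and the other lies at chr7:149698467-149698526 on the plus strand (mm9).
Tnnt3, first probe: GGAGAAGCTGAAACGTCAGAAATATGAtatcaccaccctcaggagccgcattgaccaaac
Tnnt3, other probe: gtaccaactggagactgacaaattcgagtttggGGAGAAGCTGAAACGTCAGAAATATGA
Among the isoform pairs compared here, the 2 probe pairs with the most identical bases were those of fast and slow myosin-binding protein C and of fast and cardiac troponin T. They are shown because these isoforms gave different values, and capitals mark bases that are identical when the probes are aligned without gaps. The Mybpc2 probe lies at chr7:51759105-51759164 (minus strand, mm9) and the Mybpc1 probe at chr10:87985807-87985866 (minus strand, mm9). They shared 31 of 57 aligned bases, which is 54.4%.
Mybpc2, fast: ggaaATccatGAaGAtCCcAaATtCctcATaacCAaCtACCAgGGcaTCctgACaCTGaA
Mybpc1, slow: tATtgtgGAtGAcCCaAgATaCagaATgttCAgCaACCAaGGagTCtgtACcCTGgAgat
The Tnnt3 probe with a position and the probe of Tnnt2, cardiac troponin T, shared 29 of 43 aligned bases, which is 67.4%.
Tnnt3, fast: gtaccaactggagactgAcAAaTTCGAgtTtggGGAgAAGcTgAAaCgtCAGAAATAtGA
Tnnt2, cardiac: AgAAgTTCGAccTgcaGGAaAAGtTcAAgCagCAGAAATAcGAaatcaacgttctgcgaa
In the other isoform pairs the aligned stretch was at most 30 bases. Short stretches follow from the scoring for unlike probes, because each mismatch counted against a match. Probes were compared with probes and not with the transcript of the other isoform, so the comparison cannot show which transcripts a probe binds. How much each probe bound the other isoform was not tested. The probes were not placed within exons or UTRs, because the annotation used here is on another genome build than the files' mm9.

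All 40 muscle genes were lower in the knockout, against 56.9% of all measured genes that were lower by any amount. Of the 40, 33 were at least 1.5-fold lower, against 6.06% of all measured genes, and 20 were at least 2-fold lower, against 1.35%. A further 13 lay between 1.5-fold and 2-fold, and several genes lay close to the 2-fold line, such as Ldb3 and Tnnt3 at -0.98 and -0.97 above it and Myom2 and Ampd1 at -1.02 and -1.04 below it. None was at least 2-fold or 1.5-fold higher, where 0.528% and 2.36% of all genes were. The differences ran from -2.26 for Pvalb to -0.12 for Tnnt1, with a median of -1.0, which is 2.0-fold, beside a median of -0.04 over all measured genes. The lowest 1% of all genes ended at -1.08 and held 17 of the 40, and the lowest 5% ended at -0.64 and held 32. Summed over the 40 genes, the relative signal was 511 (wild type) and 296 (knockout). In a skin sample, fewer muscle cells and less of each RNA per cell cannot be told apart.

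**Figure D1:**
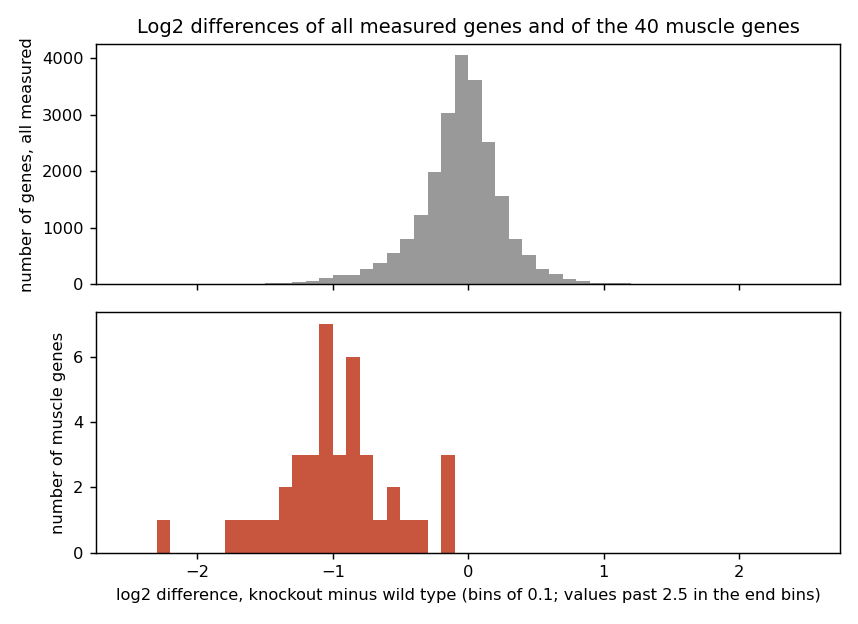
Number of genes per bin of 0.1 in the log2 difference (knockout minus wild type), for all 22740 measured genes above and for the 40 muscle genes below, each on its own count axis. The muscle genes lie between -2.26 and -0.12 with a median of -1.0, whereas all genes centre on -0.04.

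The members were not equally lower. By role, the median was -0.57 for the thin filament (11 genes), -1.02 for the thick filament, titin and the M band (5 genes), -1.11 for the Z disc (6 genes), -1.10 for calcium handling (8 genes) and -1.08 for energy supply (9 genes). At least 2-fold lower were 1 of 11 thin filament genes, 3 of 5, 3 of 6, 6 of 8 and 6 of 9 in those same roles. The thin filament median was thus the nearest to 0 of these roles. That role holds 5 of the 9 slow, cardiac or embryonic isoforms. Without them the remaining 6 thin filament genes had a median of -0.86, with 5 at least 1.5-fold lower. These role medians are descriptions of 2 arrays, with no test of the differences between roles.

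**Figure D2:**
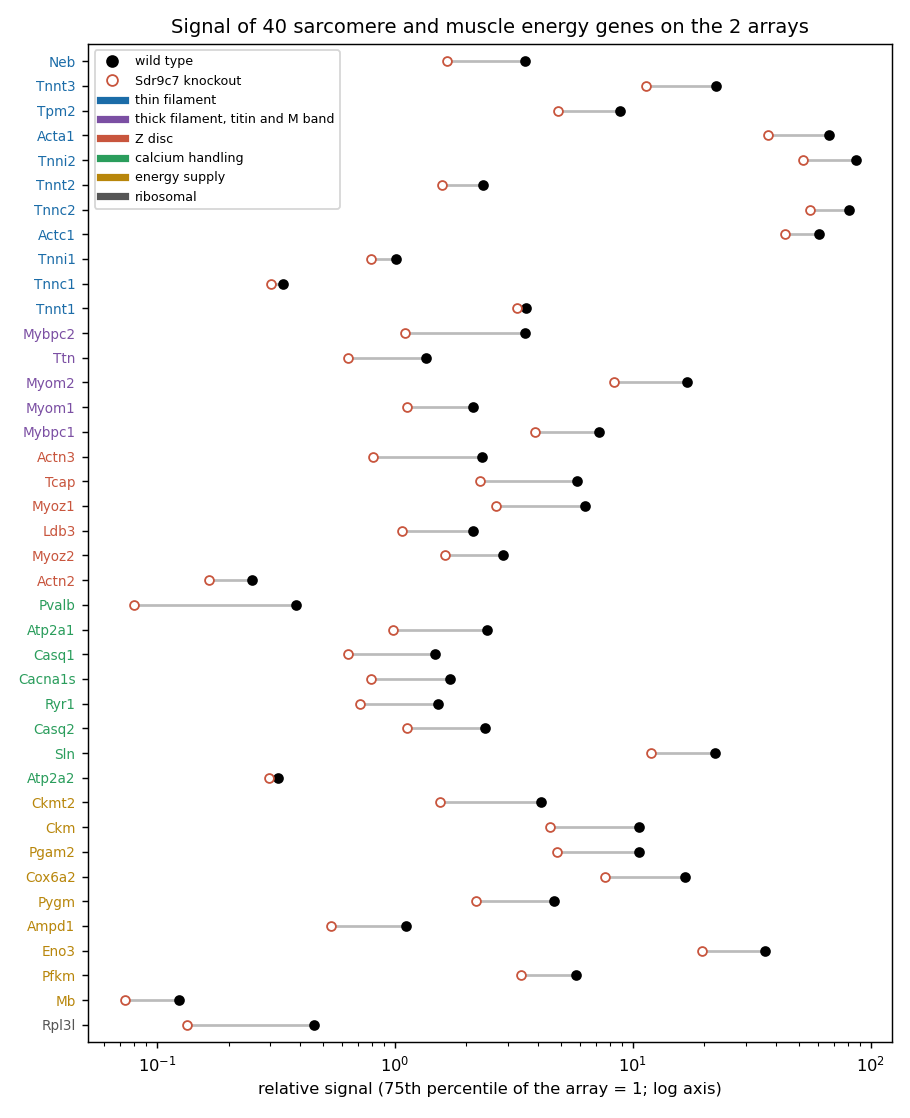
Relative signal of each of the 40 genes on the wild type array (filled) and the knockout array (open), on a log axis where 1 is the array's 75th percentile, with names coloured by role. The open symbol lies to the left of the filled one for every gene; the gap is widest for Pvalb (0.384 against 0.0803) and narrowest for Tnnt1 (3.55 against 3.27).

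In the thin filament, Acta1, skeletal muscle alpha-actin, had a relative signal of 67.1 (wild type) and 37.0 (knockout), a difference of -0.86. Actc1, the alpha-actin of heart and of immature skeletal muscle, read 60.6 and 43.6 (-0.47). Tpm2, beta-tropomyosin, which lies along actin and covers the myosin binding sites, read 8.83 and 4.87, and both of its probes gave -0.86. A probe of Tpm2 lies in an area of the slide where differences between the arrays scattered, and without such areas the gene stayed at -0.86. Neb, nebulin, a giant protein that runs the length of the thin filament, was the only thin filament gene at least 2-fold lower. It read 3.54 (wild type) and 1.65 (knockout) (-1.10), and its 2 probes gave -1.18 and -1.02.

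Troponin has a subunit that binds tropomyosin (T), an inhibitory subunit (I) and a calcium-binding subunit (C), each with fast and slow forms. The fast subunits were all lower by more than their slow counterparts. Tnnt3, fast troponin T, read 22.3 and 11.4 in wild type and knockout (-0.97), whereas Tnnt1, its slow form, read 3.55 and 3.27 (-0.12). The probes of Tnnt1 gave -0.20 and -0.03, so the slow form lay within 1 between-probe SD of the all-gene median. For the inhibitory subunit, fast Tnni2 read 86.7 and 51.8 (-0.74) and slow Tnni1 1.01 and 0.797 (-0.34). For the calcium-binding subunit, fast Tnnc2 read 81.0 and 55.6 (-0.54) and slow Tnnc1, which is also the cardiac form, 0.339 and 0.301 (-0.17). Tnnt2, the cardiac and embryonic troponin T, stood between the fast and slow forms at -0.57, with 2.34 (wild type) and 1.58 (knockout). The only probes of Tnnt2 and of Tnni2 lie in areas of the slide where differences between the arrays scattered.

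Around the thick filament, Ttn, titin, the elastic protein that spans from Z disc to M band, read 1.35 (wild type) and 0.634 (knockout) (-1.09). Its 4 probes, which lie apart along the gene, ranged from -1.36 to -0.98 and all 4 were lower than the all-gene median by more than 2 between-probe SDs. Myosin-binding protein C forms stripes on the thick filament. Its fast form Mybpc2 read 3.54 and 1.1, which is 3.21-fold lower (-1.68), and its slow form Mybpc1 read 7.21 and 3.88 (-0.90), with probe values of -0.93 and -0.86. Myom1 and Myom2, the myomesins that link thick filaments at the M band, were at -0.93 (2.14 and 1.12) and -1.02 (16.9 and 8.31). All 5 genes of this role were thus lower by at least 1.5-fold, and Mybpc2 stood apart from the other 4, which lay within -1.09 to -0.90.

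At the Z disc, the alpha-actinins cross-link actin filaments. Actn3, the form of fast fibres, read 2.32 (wild type) and 0.810 (knockout), 2.86-fold lower (-1.52). Actn2, the form of all skeletal fibres and the heart, had a mean of -0.61 over 2 probes that disagreed. The probe to its RefSeq transcript read 5.44 and 2.77 (-0.97), and a probe to a clone sequence read 0.0117 and 0.00983 (-0.25), the dimmest reading among the 53 probes. Tcap, telethonin, which caps the end of titin, was 2.55-fold lower (5.83 and 2.29). The only probe of Tcap lies in an area of the slide with scattered differences, and without such areas the Z disc median was -0.98. The myozenins bind alpha-actinin and the phosphatase calcineurin. Myoz1, the fast form, was 2.37-fold lower (6.32 and 2.67), and Myoz2, the slow and cardiac form, 1.76-fold lower (2.86 and 1.63). Ldb3, a PDZ-domain protein that binds alpha-actinin, was at -0.98 with probe values of -1.12 and -0.85. Every Z disc gene was thus at least 1.5-fold lower, though Actn2 at 1.53-fold was so by little.

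Among calcium handling genes, Pvalb had the lowest value of the 40 and ranked 12 from the lowest of all measured genes. Pvalb encodes parvalbumin, a soluble calcium buffer of fast fibres that speeds relaxation and that becomes abundant in mouse muscle after birth. Its 2 probes read 0.185 and 0.796 in the wild type, and 0.0393 and 0.164 in the knockout, which gives -2.23 and -2.28. The second of these probes sits in column 85, the last column of the array, and the other in column 5 of the same array, so both lie near an edge, on opposite sides. With normexp background correction in place of the processed signal, the gene was at -1.81.

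The calcium pumps of the sarcoplasmic reticulum differed the most between fast and slow forms. Atp2a1, the pump of fast fibres (SERCA1), read 2.45 and 0.979 (-1.32), whereas Atp2a2 (SERCA2), the pump of slow fibres and heart that other cell types including keratinocytes also use, read 0.323 and 0.296 (-0.13). Sln, sarcolipin, a small peptide that inhibits the pump, read 22.2 and 11.9 (-0.90). Casq1 and Casq2, the fast and the slow and cardiac calsequestrins that hold calcium in the store, were both at least 2-fold lower, at -1.22 (1.47 and 0.633) and -1.08 (2.39 and 1.13). The channels of excitation-contraction coupling were lower by like amounts. Cacna1s, the voltage sensor, read 1.71 and 0.790 (-1.12, probes at -1.14 and -1.10), and Ryr1, the calcium release channel, read 1.52 and 0.712 (-1.09).

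Energy genes formed the most even role, from -1.40 to -0.76, with 9 of 9 at least 1.5-fold lower. Ckmt2, the mitochondrial creatine kinase of sarcomeric muscle, was 2.64-fold lower (4.10 in the wild type, 1.55 in the knockout). Ckm, its cytosolic partner, was 2.35-fold lower (10.6 and 4.49). Along glycogen breakdown and glycolysis, Pygm, muscle glycogen phosphorylase, was at -1.08 (4.65 and 2.19) and Pfkm, the muscle form of phosphofructokinase, at -0.77 (5.78 and 3.39). Pgam2, muscle phosphoglycerate mutase, was at -1.15 (10.6 and 4.79) and Eno3, muscle enolase, at -0.88 (36.1 and 19.6). Pfkm shows the precision of a spot. Its probe was printed 10 times, and the 10 differences ran from -0.89 to -0.71 with an SD of 0.05. Ampd1, the AMP deaminase of skeletal muscle, was at -1.04 (1.11 and 0.541). Cox6a2, the cytochrome c oxidase subunit of heart and skeletal muscle, was at -1.12 (16.6 and 7.62). Mb, myoglobin, the oxygen store of oxidative fibres, was at -0.76 from a dim signal (0.124 and 0.0732).

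Rpl3l is a ribosomal protein of striated muscle that can take the place of Rpl3 in the ribosome. It was 3.41-fold lower, with 0.457 (wild type) and 0.134 (knockout) (-1.77), the lowest value of the 40 after Pvalb. Rpl3, its counterpart in all cells, read 55.2 and 53.0 (-0.06).

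**Figure D3:**
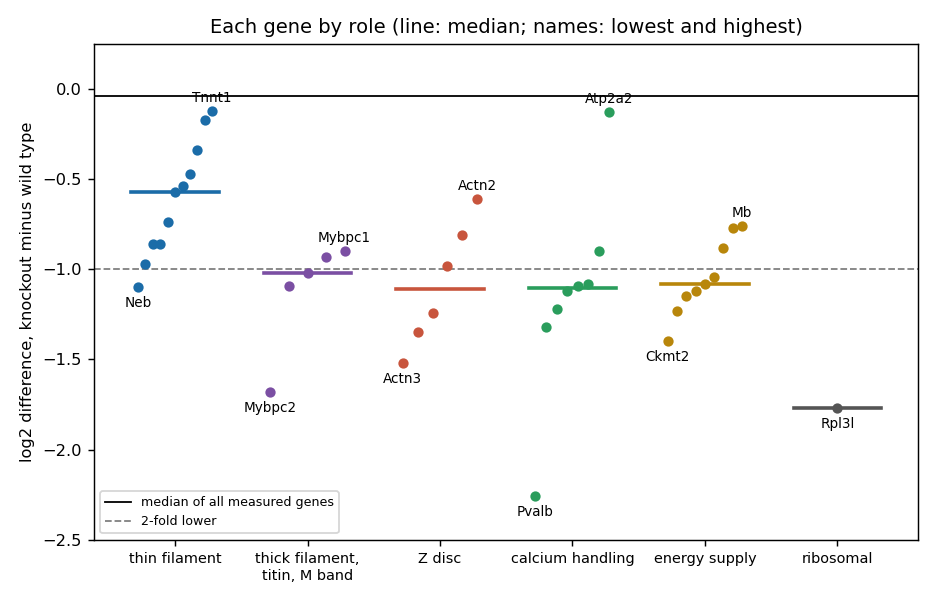
Log2 difference (knockout minus wild type) of each gene, 1 point per gene, by role, with the median of each role as a coloured line, the median of all measured genes (-0.04) as a black line and 2-fold lower as a dashed line; the lowest and the highest gene of each role are named. The thin filament spreads from -1.10 to -0.12 around -0.57, and the other roles with several genes have medians between -1.11 and -1.02.

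The fast form was lower by more than the slow form in 7 of 7 pairs. These pairs were chosen with earlier results of these data known. The difference between the 2 log2 differences was -1.20 for Atp2a1 and Atp2a2, -0.85 for Tnnt3 and Tnnt1, -0.79 for Mybpc2 and Mybpc1, -0.43 for Myoz1 and Myoz2, -0.41 for Tnni2 and Tnni1, -0.37 for Tnnc2 and Tnnc1 and -0.14 for Casq1 and Casq2. The median was -0.43. In 6 pairs this exceeded the between-probe SD of 0.25, in 3 pairs it exceeded 2 such SDs, and the calsequestrin pair lay within 1. That SD is for single probes of 1 gene, and a difference between 2 genes can spread more, so it is a rough scale here. Of the pairs, 2 have a gene whose probe lies in an area of the slide with scattered differences (Tnni2 and Casq2), and the median over the other 5 pairs was -0.79. Taken by class, the 9 fast genes had a median of -1.24 with 6 at least 2-fold lower. The 7 slow genes had a median of -0.34 with 1 at least 2-fold lower, Casq2. Slow forms were not alike: Mybpc1, Myoz2 and Casq2 were at least 1.5-fold lower, and Tnnt1, Tnnc1, Tnni1 and Atp2a2 were not. Atp2a2 is not specific to muscle, and how much of its signal came from other cells was not tested.

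Pairs with other isoforms gave values in the same direction. The difference between the log2 differences was -0.38 for Acta1 and Actc1 and -0.40 for Tnnt3 and Tnnt2. Both exceed 1 between-probe SD and not 2, on the same rough scale, and the Tnnt2 probe lies in an area of the slide with scattered differences. For the alpha-actinins the difference was -0.91 against the mean of both Actn2 probes, and Actn3 at -1.52 was also lower than the single Actn2 probe at -0.97. The 22 genes not assigned to a fast, slow or cardiac form had a median of -1.06, and all 22 were at least 1.5-fold lower.

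**Figure D4:**
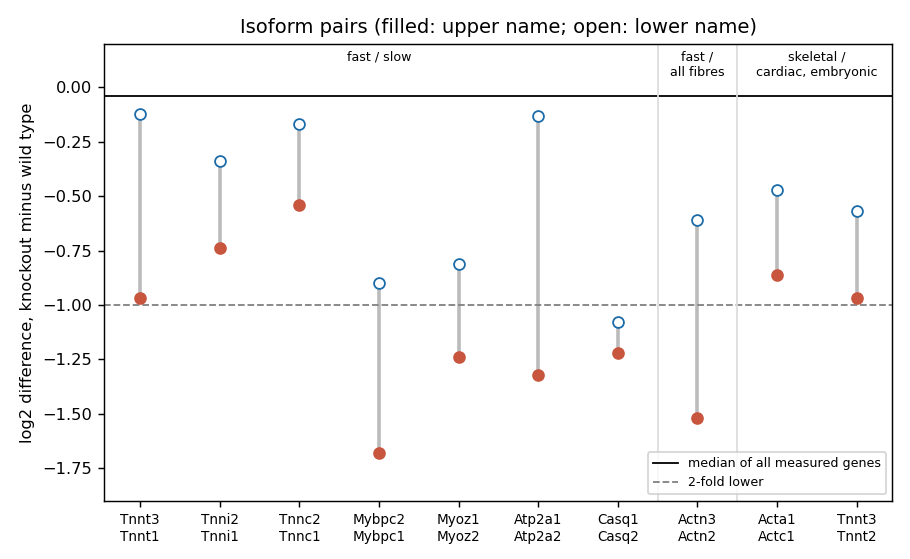
Log2 difference (knockout minus wild type) of the 2 genes of each isoform pair, with the upper name filled, the lower name open, the all-gene median as a black line and 2-fold lower as a dashed line. The filled symbol lies below the open one in every pair; the gap is widest for Atp2a1 and Atp2a2 (-1.32 against -0.13) and narrowest for Casq1 and Casq2 (-1.22 against -1.08).

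Several of the 40 genes have a paralog that does the same work in other tissues. The pairs were chosen with earlier results of these data known. All of these paralogs lay within 1.5-fold, as most genes did. Of all measured genes, 6.06% were at least 1.5-fold lower and 2.36% at least 1.5-fold higher. Over 17 pairs, some of which share a muscle gene, the muscle gene was lower than its paralog in all 17. The differences lay between -1.71 and -0.83 with a median of -1.13. All exceeded 2 between-probe SDs, though a difference between 2 genes can spread more than probes of 1 gene. The 17 paralogs themselves ran from -0.12 to 0.18 with a median of 0.06. Actb, cytoplasmic beta-actin, read 131 (wild type) and 130 (knockout) (-0.01). Actn4, a non-muscle alpha-actinin, was at 0.11, and Tpm4, a tropomyosin of non-muscle cells, at -0.03 (26.0 and 25.4). The actins are almost identical as proteins, and how much the Acta1 probe bound other actin transcripts was not tested.

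The energy paralogs were as even. Ckb, the creatine kinase of brain and many other tissues, was at -0.02 (0.984 and 0.970) beside -1.23 for Ckm, and Ckmt1, the ubiquitous mitochondrial creatine kinase, at 0.18 (7.80 and 8.81) beside -1.40 for Ckmt2. Eno1 was at 0.06 (24.7 and 25.8) and Pgam1 at 0.07 (24.8 and 26.2), both glycolytic enzymes of most tissues. The liver and brain glycogen phosphorylases Pygl and Pygb were at 0.05 and -0.06, and the phosphofructokinases Pfkl and Pfkp at 0.16 and 0.07. Cox6a1, the cytochrome c oxidase subunit found outside striated muscle, was the lowest paralog at -0.12 (90.7 and 83.6). The AMP deaminases Ampd2 and Ampd3 were at 0.06 and 0.12, Atp2a3 at -0.03 and Actn1 at 0.15.

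**Figure D5:**
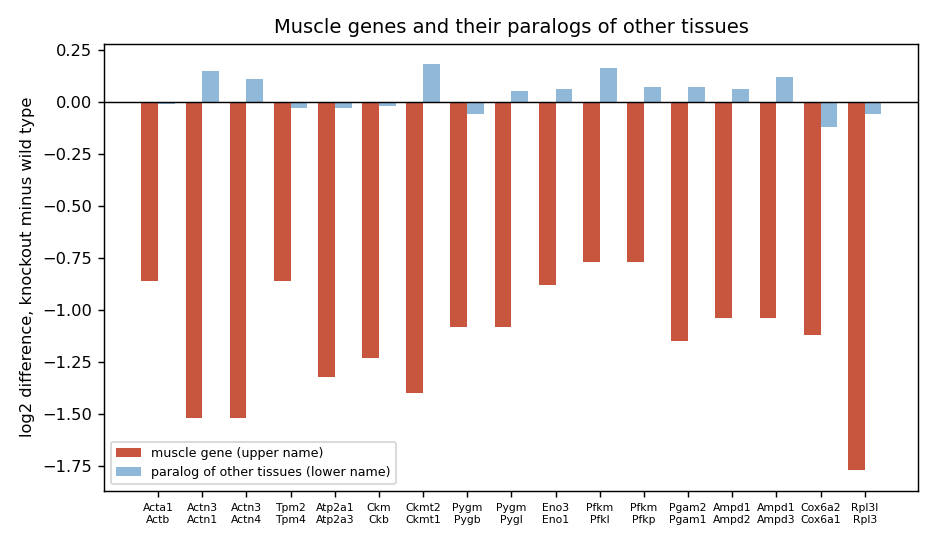
Log2 difference (knockout minus wild type) of 17 pairs of a muscle gene (red bars, upper name) and its paralog of other tissues (blue bars, lower name), from a baseline of 0. Muscle genes that have several paralogs appear more than once; the red bars lie between -1.77 and -0.77 and the blue bars between -0.12 and 0.18.

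The size of the difference varied with signal. The 7 muscle genes with a wild type relative signal of at least 20 had a median of -0.86, and 0 of 7 were at least 2-fold lower. The other 33 had a median of -1.08 with 20 at least 2-fold lower. Within the thin filament the order was not the same. Its 6 genes with a signal under 20, which include the slow troponins, had a median of -0.45, against -0.57 for all 11. Of all 876 measured genes with a signal of at least 20, 18 were at least 1.5-fold lower and none 2-fold, and Tnnt3 was the lowest of them at -0.97. Those 7 include Tnnt3, Tnni2 and Tnnc2 of the fast troponin subunits, whose slow partners had signals under 20. The part of signal strength in the lower fold of the fast troponins was not tested.

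Beyond the 40, a list of 46 other sarcomere and muscle energy genes, taken for their known function, was lower in most members too. It was drawn up with earlier results of these data known, so it is not independent support. All 46 were measured, with a median of -0.89. Of them, 44 were below 0, against 56.9% of all measured genes. At least 1.5-fold lower were 37, against 6.06%, and at least 2-fold lower were 15, against 1.35%. The lowest was Lmod2, leiomodin, which nucleates actin filaments, at -1.20 from a dim signal (0.0605 and 0.0263). Next were Trim63, the ubiquitin ligase MuRF1, at -1.19, and Trdn, triadin, which anchors calsequestrin at the release channel, at -1.18. The highest were Tpm3, a tropomyosin of slow fibres and of non-muscle cells, at 0.28 (0.503 and 0.612), Synpo2l at 0.28 (7.39 and 8.99) and Nebl, nebulette, a nebulin relative of the heart, with 0.0345 on both arrays. Of the 308 genes at least 2-fold lower, the 40 muscle genes made up 6.49%, and together with this list they made up 11.4%. For scale, the 40 genes and the 46 of the list stand among 22740 measured genes.

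Marker lists of cell types were read in the same way, the myogenic list being of the muscle lineage itself. Of all measured genes, 56.9% were below 0, 6.06% at least 1.5-fold lower and 1.35% at least 2-fold lower. Of 12 myogenic markers, 10 were measured, and 5 of these were at least 1.5-fold lower and 0 at least 2-fold lower, from Myf6, a muscle regulatory factor, at -0.97 to Pax3 at 0.35 (summed signal 5.14 in the wild type, 3.15 in the knockout). Myf5 was not well above background on either array. Of 9 smooth muscle markers, 8 were measured and all 8 were below 0, from Cnn1 at -0.97 to Smtn at -0.19 (summed signal 17.7 and 12.5). Of 10 heart markers, 9 had a signal under 0.1 on both arrays, with Nppb the highest in difference at 0.30. The tenth, Myl4, an atrial myosin light chain that fetal skeletal muscle also uses, read 26.0 and 16.7 (-0.64). Summed, heart markers gave 26.3 and 17.0, nearly all of it from Myl4.

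White adipocyte markers were lower in 9 of 10, with a median of -0.50, from Cfd, adipsin, at -1.76 to Dgat2 at 0.04 (summed signal 115 and 86.5). For scale here too, 56.9% of all measured genes were below 0. Brown adipocyte markers were below 0 in 3 of 7, with a median of 0.23, from Ppargc1a at -1.11 to Prdm16 at 0.72 (summed signal 2.92 and 2.96). Dermal fibroblast markers had a median of -0.04 (from Dlk1 at -0.40 to Pdgfra at 0.12, summed signal 350.0 and 335) and keratinocyte markers 0.04 (from Lor at -0.15 to Ivl at 0.26, summed signal 373 and 367). Endothelial markers were below 0 in 6 of 6, with a median of -0.21 (from Pecam1 at -0.30 to Tie1 at -0.16, summed signal 5.92 and 5.10). Of 7 nerve and Schwann markers, Nefl and Nefm were not well above background, and the other 5 had a median of -0.19 (highest Sox10 at 0.01, summed signal 7.32 and 6.45). Myogenic, smooth muscle and white adipocyte markers were thus the lists with the lowest medians, while keratinocyte and fibroblast markers lay at the all-gene median or above. The part of cell types other than skeletal muscle in the muscle result was not tested.

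Promoter windows were looked up because the 40 genes were lower together, and the motifs were picked after the values were seen. A RefSeq table (GRCm38.p6) gave windows of 250 bases before to 50 after the start of transcription for 29 of the 40 genes, 39 windows in all. Searched on both strands, the E box (CANNTG), which the myogenic factors bind, was in 87.2% of the muscle windows and in 72.3% of all 32851 windows. The MEF2 site was in 15.4% against 3.19%, the CArG box of serum response factor in 12.8% against 1.63%, the MCAT element (CATTCC) in 20.5% against 14.7% and TATAAA in 7.69% against 13.6%. These shares count windows and not genes, and windows of 1 gene can overlap. The CArG box was in 5 windows of 4 genes, because the same box of Ldb3 lay in overlapping windows. The letters TATAAA can lie inside a MEF2 site or a CArG box. CArG boxes were in windows of Acta1, Actc1, Ldb3 and Myom1, and MEF2 sites in those of Casq2, Myoz2, Pgam2, Pvalb, Rpl3l and Ttn. Differences of the 6 genes with a MEF2 site ranged from -2.26 to -0.81 and of the 4 with a CArG box from -0.98 to -0.47. The 10 genes with either site had a median of -1.03, and the 19 genes with a window and neither site a median of -0.88, from -1.68 for Mybpc2 to -0.12 for Tnnt1, so both sets spanned small and large differences. Among those without a site, Ckmt2 was at -1.40 and Atp2a1 at -1.32. To show what such windows look like, the last 120 bases before the start are given for Acta1 and Myoz2, with a site, and for Tnni1 and Tnnc1, without one. These 4 were picked after their values were seen and do not represent their sets, and matched letters are in capitals. They lie at chr8:123894776-123894895 (minus strand) for Acta1, chr3:123034988-123035107 (minus) for Myoz2, chr1:135799301-135799420 (plus) for Tnni1 and chr14:31208192-31208311 (plus) for Tnnc1.
Acta1: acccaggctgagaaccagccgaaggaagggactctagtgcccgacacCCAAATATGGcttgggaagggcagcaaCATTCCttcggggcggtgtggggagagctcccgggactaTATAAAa
Myoz2: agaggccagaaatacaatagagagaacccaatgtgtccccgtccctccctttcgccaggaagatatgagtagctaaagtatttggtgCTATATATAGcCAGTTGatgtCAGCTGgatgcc
Tnni1: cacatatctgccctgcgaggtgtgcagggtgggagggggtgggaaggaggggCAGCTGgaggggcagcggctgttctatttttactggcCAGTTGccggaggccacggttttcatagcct
Tnnc1: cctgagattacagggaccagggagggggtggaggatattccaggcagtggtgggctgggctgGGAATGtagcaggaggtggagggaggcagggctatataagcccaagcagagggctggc
In Acta1 the capitals are a CArG box, an MCAT element and TATAAA, in Myoz2 a MEF2 site and 2 E boxes, in Tnni1 2 E boxes, and in Tnnc1 an MCAT element on the other strand. These are matches of letters, with no measurement of binding in these data.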

How the data were processed

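Gene expression was measured on 2 Agilent 1-colour arrays on the same slide, 1 of wild type and 1 of Sdr9c7 knockout newborn dorsal skin, from 200 ng of Cy3-labelled total RNA each, per the labels' protocols. Per the file headers, the authors' scanner files hold intensity values extracted with Agilent Feature Extraction 11.5.1.1, background-subtracted and detrended within each array. The deposited series matrix holds a linear ratio, found to be the processed intensity over 1 constant per array, 1905.63 and 2080.45, with medians of 0.0855 and 0.0840, no gene centring and no direction between genotypes. How it was made is not stated in these sources. Probe coordinates are on mm9.

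Control spots and 192 other spots marked as outliers were left out of 44397, spots of a probe were averaged, log2 intensity was centred on the 75th percentile of 39417 probes (intensities 1746.82 and 1923.04), and a gene was the mean over its probes above background (by the scanner's flag) and not saturated on either array. No spot of the 40 genes was an outlier or saturated. Of their 53 probes, 52 had an accession in a RefSeq gene table, all under the same symbol, and 12 had no mm9 position. Python 3.11.15 with pandas 2.3.3 and R 4.3.3 with limma 3.58.1 were used, and the processing was tested on simulated data. With 1 array per genotype no test was run, and the number of arrays limits the precision. All 40 genes are named. Of the further list the 3 lowest and 3 highest are named, and of each cell type list the gene at each end, except 1 that is not reported here. Acta1, Myoz2, Tnni1 and Tnnc1 were picked for their promoters, and Myf5, Nefl and Nefm are named outside this rule, after their values were seen. The 40 genes, the lists and the pairs were chosen with earlier results of these data known. Alternatives were normexp correction, 3 scalings, 2 filters on dim probes, the brightest probe, removal of uneven spots or of scattering areas, and the series matrix values.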

Additional observations from a re-analysis of the deposited data

How the results depend on the processing

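All measured muscle genes were below 0 under each of the 10 alternatives (40 of 40, and 36 of 36 without the scattering areas of the slide, where dim spots scattered or many spots were 2-fold apart). Leaving out those areas drops Tnnt2, Tnni2, Tcap and Casq2, and a probe of Tpm2. The median over the muscle genes stayed between -1.0 and -0.96, and 18 to 20 were at least 2-fold lower, with 0 at least 2-fold higher. Not every alternative could move these genes. The series matrix is the processed intensity over 1 constant per array. All 53 probes passed the dim filter already, and their pixel SD was at most 0.217 of the mean, under the cut of 0.5. The series matrix values, no dim filter and removal of uneven spots therefore left every muscle gene as it was. Medians by role stayed between -0.58 and -0.52 for the thin filament, -1.11 and -0.98 for the Z disc, -1.12 and -1.06 for calcium handling and -1.08 and -1.0 for energy supply. The fast form was lower in 7 of 7 pairs, or 5 of 5 without those areas, where the median over pairs moved from -0.43 to -0.79 because fewer pairs were left. Single genes moved by over the between-probe SD in 3 cases: Pvalb, to -1.81 with normexp correction, and Actn2, to -0.97 with its brightest probe or with a minimum signal of 0.05, since both drop the dim probe. The all-gene median lay between -0.07 and 0.01. Genes at least 2-fold lower and higher numbered 308 and 120 at first, 103 and 33 with normexp correction, 983 and 820 with no filter on dim probes, 152 and 42 with a minimum signal of 0.05, and 212 and 71 without the scattering areas. The split between lower and higher was 253 to 133 with quantile normalization and 259 to 135 with cyclic loess. No paired analysis was possible because each genotype has 1 array. Signal over background limits Mb, Pvalb and the dim probe of Actn2 the most.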

Other observations

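In the mouse genome, troponin T and troponin I genes lie side by side in pairs, and the pairs gave graded values on these arrays. Fast Tnnt3 and Tnni2, with 1 protein-coding gene between them on chromosome 7, were at -0.97 and -0.74. Cardiac Tnnt2 and slow Tnni1, with 1 such gene between them on chromosome 1, were at -0.57 and -0.34. Slow Tnnt1 and cardiac Tnni3, with 0 between them on chromosome 7, were at -0.12 and -0.11, and the signal of Tnni3 was 0.0472 (wild type) and 0.0437 (knockout). These genes were looked up after their values were seen, their order comes from a RefSeq gene table of GRCm38.p6, and the values are a description without a test. The only probes of Tnnt2 and of Tnni2 lie in scattering areas of the slide.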
